A study of Mus musculus with 15 samples.

Results

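DZNep and GSK126, both used to block histone methylation by EZH2, were set directly against each other in B16-F10 cells, a pigmented mouse melanoma line grown in culture. The comparison used every library of the 2 groups, 3 from cells given 2 µM DZNep and 3 from cells given 2 µM GSK126, which made 6 of the 15 RNA sequencing libraries of the study. The other 9 libraries, 3 each, came from cells given DMSO, the vehicle, and from a parallel siRNA arm with an siRNA against Ezh2 (siEzh2) or a scrambled one (scr). The sources used here give neither the duration of treatment nor the number of separate cultures, so a p-value measures only the spread between these libraries, which may be technical. Because the RNA was bulk, fewer cells expressing a gene and less of its RNA per cell cannot be told apart.

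EZH2 is the enzyme of the Polycomb repressive complex PRC2, which methylates H3K27 and keeps developmental genes silent. GSK126 competes with the methyl donor S-adenosylmethionine in the active site of EZH2. DZNep (3-deazaneplanocin A) acts further upstream: it blocks S-adenosylhomocysteine hydrolase, so that the spent methyl donor builds up and many methyltransferases are held back, and EZH2 protein is known to fall. In melanocytic cells EZH2 is known for restraining differentiation and cell cycle inhibitor genes.

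The 6 libraries held between 34690674 and 43712190 counts. In a principal component analysis of all 15 libraries, the first component carried 60.1% of the variance. The 2 groups separated on it without overlap (72.71 to 74.68 with DZNep, −20.09 to −17.66 with GSK126). Mitochondrially encoded transcripts took 8.17%, 7.39% and 5.98% of counts with DZNep, against 8.51%, 9.26% and 10.2% with GSK126. These shares did not overlap, and their part in the gene results was not tested. GSK126 replicate 1 has a library number beside those of the siRNA arm, whereas the numbers of the other 5 libraries run on, so the results were also computed without it. The pigment cell label held in all 6: the 7 melanocyte markers summed to 22219, 22375 and 22044 CPM (counts scaled to library size) with DZNep, against 21763, 21404 and 21553 CPM with GSK126. Of 16 markers of blood and endothelium 3 passed the count filter, and of 12 fibroblast markers 7. Of the others, Ptprc, Cd3e, Adgre1, Hbb-bs and Cdh5 of blood and endothelium and Thy1 and Dpt of fibroblasts had 0 or 1 counts in each of the 6 libraries. Lum of fibroblasts and Pecam1 of endothelium had between 2 and 6 counts in each. The markers that passed the filter are described with the matrix genes.

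The compounds left very different transcriptomes. Of 15152 genes tested, 9792 differed at a Benjamini-Hochberg adjusted p under 0.05 in edgeR's quasi-likelihood test, and this is what "called" means below. That was 64.6% of the genes, with 4985 (32.9%) higher and 4807 (31.7%) lower with DZNep than with GSK126. Most differences were small: the median size of a called difference was 1.44-fold, the median log2 difference of all genes was 0.00, and the groups did not overlap for 70.5% of genes. Differences of at least 2-fold leaned downwards, with 772 genes (5.1%) higher and 1412 (9.32%) lower with DZNep, together 14.4% of genes. Between 4-fold and 8-fold there were 135 higher and 306 lower genes, whereas at 16-fold and beyond the counts were 35 higher and 38 lower. For scale, 9434 genes (62.3%) were called with DZNep against DMSO, 1923 (12.7%) with GSK126 against DMSO and 3953 (26.1%) with siEzh2 against scr. The first pair of these counts rests on the same DMSO libraries.

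The lean towards lower levels at 2-fold was found in most ranges of expression. When genes were sorted by their mean level in the scr libraries, which the comparison does not use, 22.8% of the 1753 genes between 0.5 and 2 CPM were called at least 2-fold lower with DZNep and 8.21% at least 2-fold higher. Under 0.5 CPM these shares were 20.1% lower and 18.5% higher, between 2 and 8 CPM 15.1% and 6.17%, between 8 and 32 CPM 5.18% and 2.56%, between 32 and 128 CPM 2.99% and 1.49%, and above 128 CPM 2.28% and 1.35%. The effect of depth on these shares was not tested.

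**Figure D1:**
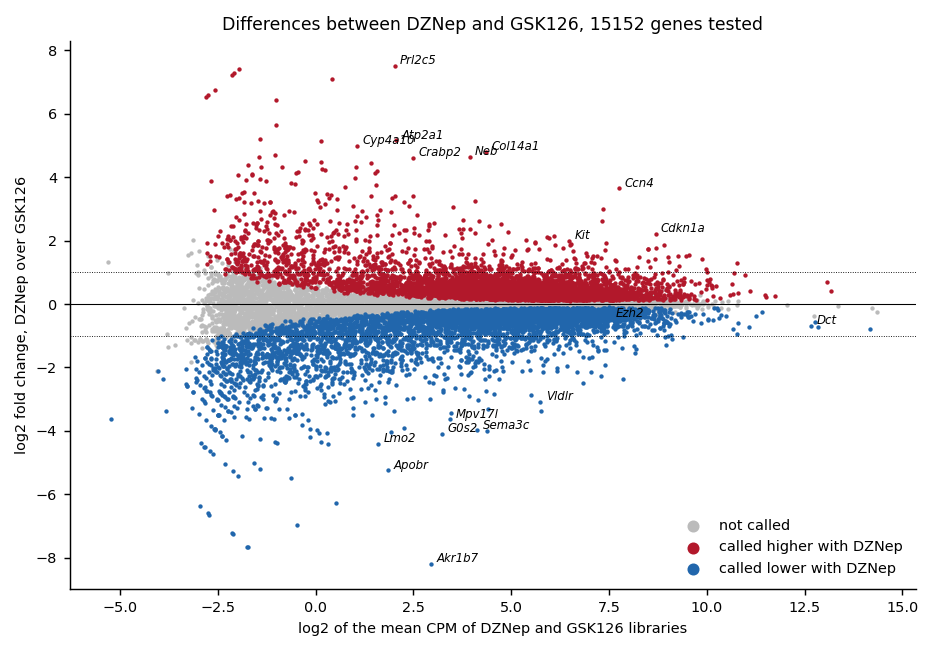
Each point is 1 of 15152 genes tested, with the log2 of its mean CPM over the DZNep and GSK126 libraries on the horizontal axis and its log2 fold change, DZNep over GSK126, on the vertical axis. Red points were called higher with DZNep, blue points lower and grey points were not called, dotted lines mark 2-fold, and the cloud reaches from Akr1b7 at −8.19 to Prl2c5 at 7.52 among the labelled genes.

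The transcripts of the direct targets differed little between the compounds. Ezh2 (ENSMUSG00000029687, chr6:47530139-47595341, GRCm38, minus strand) stood at 160, 156 and 150 CPM with DZNep, against 208, 212 and 221 CPM with GSK126. All DZNep libraries lay below all GSK126 libraries, a 1.37-fold difference (log2 −0.46 ± 0.05 SE, adjusted p = 6.97e-08). The DMSO mean was 207 CPM. Gm26625, a predicted antisense gene, overlaps Ezh2, and the strand setting of the counting is not known here. Eed, the PRC2 subunit that reads the methylated histone tail, was higher at 42.2, 42.1 and 40.8 CPM with DZNep, against 31.7, 30.5 and 27.5 CPM with GSK126 (log2 0.48 ± 0.05, adjusted p = 1.91e-07). Suz12, a core subunit, lay slightly lower with DZNep (−0.16 ± 0.05), and Ezh1, the paralogous methyltransferase, slightly higher (0.33 ± 0.07). Of 13 PRC2 genes tested, 5 were higher, 4 were lower and 4 were not called, shares of 38.5% and 30.8% that lie near those of all genes, and none differed 2-fold.

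Ahcy (chr2:155059310-155074497), which encodes the hydrolase that DZNep inhibits, had overlapping levels of 28.9, 27.1 and 29 CPM with DZNep, against 29.3, 24.3 and 27.2 CPM with GSK126 (log2 0.07 ± 0.10, adjusted p = 0.563). Its relatives Ahcyl1 (−0.09 ± 0.04) and Ahcyl2 (−0.10 ± 0.05) missed the threshold with adjusted p = 0.081 and 0.082. Ahcyl1 was called in DESeq2 and with library totals alone, and Ahcyl2 in DESeq2 and without DZNep replicate 3.

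The genes around the methyl cycle differed more. Mat2a (chr6:72432799-72439558), which makes S-adenosylmethionine in most cells, stood at 293, 271 and 297 CPM with DZNep, against 567, 553 and 566 CPM with GSK126. The DZNep libraries lay close together and below all GSK126 libraries, 1.96-fold lower in the fit (log2 −0.97 ± 0.05, adjusted p = 9.14e-13). The antisense RNA Particl overlaps Mat2a. Cth, the enzyme that makes cysteine from cystathionine downstream of homocysteine, had 2.24, 2.98 and 3.42 CPM with DZNep, against 15.9, 12.6 and 13.6 CPM with GSK126 (log2 −2.26 ± 0.12). Among enzymes of methionine salvage, Mri1 was 0.88 ± 0.08 and Adi1 0.54 ± 0.06 higher on the log2 scale, Apip was lower, and Mtap and Enoph1 were not called. The list of 20 tested genes of the methionine cycle split evenly, with 6 higher and 6 lower (30% each, near the shares of all genes), and 3 were lower without GSK126 replicate 3.

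In polyamine metabolism, which draws on the same methyl donor, 5 of 14 genes were higher and 4 lower (35.7% and 28.6%, near the 32.9% and 31.7% of all genes). Sat1, which acetylates polyamines for export and breakdown, had 92.1, 83.9 and 88.7 CPM with DZNep, against 33.5, 35.6 and 30.5 CPM with GSK126 (log2 1.41 ± 0.08, adjusted p = 2.56e-11). Srm, spermidine synthase (0.79 ± 0.07), and the lysosomal polyamine exporter Atp13a2 (0.98 ± 0.07) were higher too, whereas Azin1, the antizyme inhibitor, was lower (−0.64 ± 0.06). Among writers and erasers of DNA methylation and H3K27 methylation, Kdm6b, an H3K27 demethylase, was lower with DZNep (log2 −1.12 ± 0.13, 71.3, 70.3 and 80.5 CPM with DZNep against 139, 165 and 178 CPM with GSK126), as was the DNA dioxygenase Tet3 (−0.69 ± 0.09). The DNA methyltransferase Dnmt3b was higher (0.50 ± 0.10). In all 4 of 10 were higher (40%) and 3 lower (30%).

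The 10 genes named here for their large increases with DZNep over GSK126 have varied functions. Col14a1 (chr15:55307750-55520803), a collagen that binds fibril surfaces, had 40.2, 39 and 39.2 CPM with DZNep, against 1.26, 1.64 and 1.36 CPM with GSK126. Neb (chr2:52136647-52378474), the giant thin filament protein of skeletal muscle, had 26.2, 30.7 and 31.8 CPM with DZNep, against 1.58, 0.898 and 1.09 CPM with GSK126. In both genes the GSK126 libraries lay near the DMSO means of 1.18 and 0.859 CPM, and the differences were 27.6-fold (log2 4.79 ± 0.12, adjusted p = 2.7e-17) and 25.1-fold (4.65 ± 0.14, adjusted p = 8.71e-16). Atp2a1, the calcium pump of fast muscle, had 7.38, 9.61 and 7.15 CPM with DZNep, against 0.188, 0.161 and 0.316 CPM with GSK126 (log2 5.16 ± 0.23). Crabp2, a carrier of retinoic acid, had 10.3, 11.1 and 11.1 CPM with DZNep, against 0.268, 0.438 and 0.608 CPM with GSK126 (4.60 ± 0.18).

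The remaining large increases were in genes of low level. Eef1a2, an elongation factor form of muscle and neurons (log2 4.46 ± 0.21), the mucin Muc20 (4.33 ± 0.28), the hydrogen peroxide producing oxidase Duox1 (4.20 ± 0.23) and Elf5, a transcription factor of mammary and other secretory epithelia (4.13 ± 0.18), stood between 3.08 and 6.31 CPM with DZNep and between 0.107 and 0.365 CPM with GSK126. Prl2c5, a placental prolactin family hormone, had 7.79, 7.91 and 8.51 CPM with DZNep, against 0.0536, 0.0691 and 0 CPM with GSK126 (7.52 ± 0.32). Cyp4a10, a fatty acid hydroxylase, had 4.37, 3.81 and 3.96 CPM with DZNep, against 0.134, 0.138 and 0.0973 CPM with GSK126 (adjusted p = 1.55e-11). Both Prl2c5 and Cyp4a10 have near-identical family members, so how the counting shared their reads is uncertain.

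On the other side, Akr1b7 (chr6:34412334-34423142), an aldo-keto reductase of steroid-producing tissue, was nearly lost with DZNep. It had 0.0295, 0.0953 and 0.0226 CPM with DZNep, which is 1, 4 and 1 counts, against 15.8, 14.2 and 16.5 CPM with GSK126 (log2 −8.19 ± 0.30, adjusted p = 5.01e-13). Apobr, a receptor for triglyceride-rich lipoproteins, had 0.295, 0.0953 and 0.181 CPM with DZNep, against 7.27, 7.09 and 6.86 CPM with GSK126 (−5.25 ± 0.27), and its exons overlap Cln3 and Il27. G0s2, an inhibitor of the lipase that opens fat droplets, had 0.974, 1.22 and 0.883 CPM with DZNep, against 15.7, 18.2 and 18.9 CPM with GSK126 (−4.10 ± 0.24). For these genes the GSK126 level was close to that of DMSO, which averaged 13.3, 6.5 and 15.5 CPM.

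Odf3l1, a relative of sperm tail fibre proteins, had 2.54, 2.53 and 2.26 CPM with DZNep, against 38.2, 40.1 and 38.6 CPM with GSK126 (log2 −4.00 ± 0.08, adjusted p = 1.11e-18). Mmp11, a secreted matrix metalloproteinase (−4.04 ± 0.18), Mpv17l, a membrane protein of peroxisomes and mitochondria (−3.64 ± 0.13), the adhesion protein of cornified skin Cdsn (−3.92 ± 0.19) and the actin-associated adaptor Afap1l2 (−3.49 ± 0.18) completed the group with Lmo2 and Sema3c, which are described with the GSK126 genes below.

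**Figure D2:**
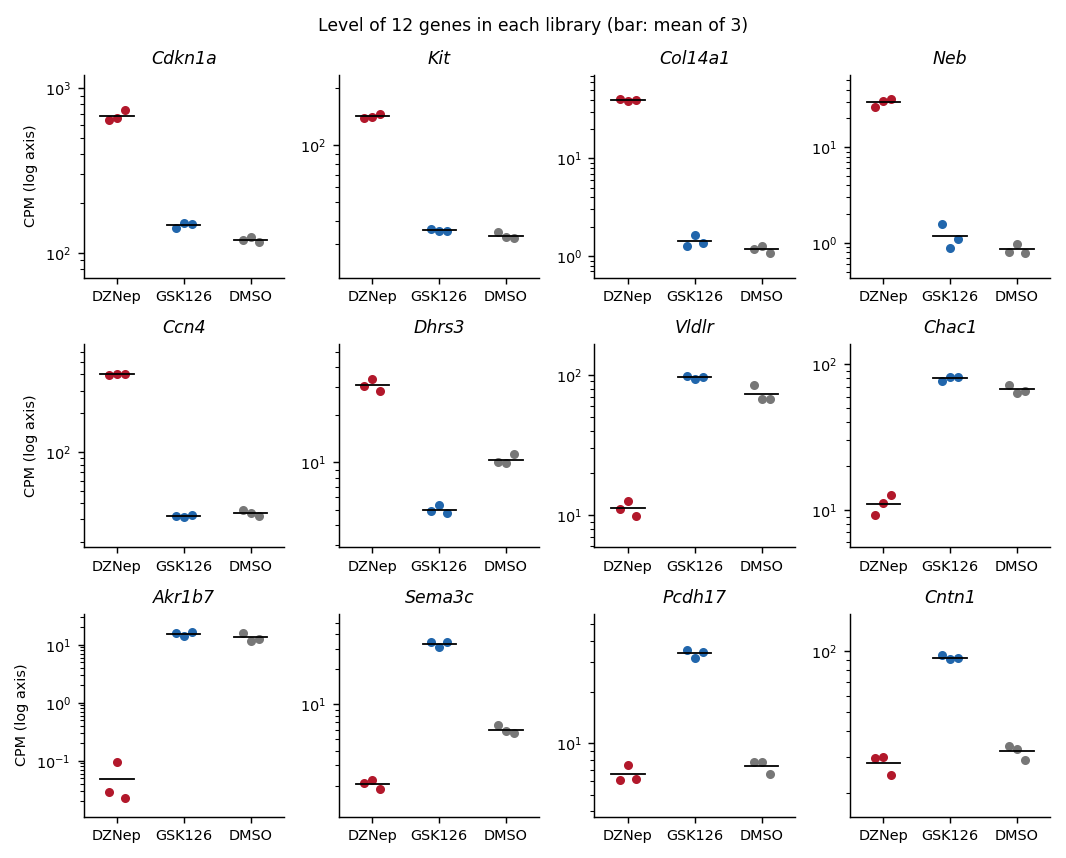
Levels of 12 genes in CPM on logarithmic axes, with 1 point per library in the order DZNep, GSK126, DMSO and a bar at the mean of 3. Cdkn1a, Kit, Col14a1, Neb and Ccn4 are high with DZNep alone, Vldlr, Chac1 and Akr1b7 are low with DZNep alone, Sema3c, Pcdh17 and Cntn1 are high with GSK126, and Dhrs3 is high with DZNep and low with GSK126.

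Targets of the tumour suppressor p53 were higher with DZNep. Of 30 tested, 22 were called higher (73.3%, against 32.9% of all genes) and 3 lower (10%, against 31.7%), with a median log2 difference of 0.96. Cdkn1a (chr17:29090976-29100727), the cyclin-dependent kinase inhibitor p21, had 642, 656 and 736 CPM with DZNep, against 142, 152 and 149 CPM with GSK126 (4.59-fold higher, adjusted p = 6.33e-16). Ccng1, a cyclin induced by p53, had 563, 571 and 538 CPM with DZNep, against 175, 163 and 166 CPM with GSK126 (log2 1.73 ± 0.06). Plk2, a polo-like kinase, had 27.7, 26.6 and 29.6 CPM with DZNep, against 6.22, 6.13 and 5.45 CPM with GSK126 (2.24 ± 0.08). In all 3 genes each DZNep library lay more than 3-fold above each GSK126 library. Other members, chosen after their values were seen, were the p53 ubiquitin ligase Mdm2 (1.14 ± 0.05), the apoptosis effector Bax (0.83 ± 0.06) and the autophagy and stress protein Trp53inp1 (1.49 ± 0.06). The members that were lower were Rrm2b, a ribonucleotide reductase subunit (−1.07 ± 0.09), Sesn2, a stress-induced inhibitor of mTORC1 signalling that is also an ATF4 target (−0.38 ± 0.07), and the DNA damage sensor Xpc.

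The integrated stress response ran the opposite way. This pathway lets the transcription factor ATF4 raise amino acid synthesis, amino acid import and tRNA charging when translation is slowed. Of 35 genes tested, 31 (88.6%) were called lower with DZNep than with GSK126, against 31.7% of all genes, and 3 were higher, with a median log2 difference of −0.83. Promoter windows from RefSeq (build GRCm38.p6, 250 bases before to 50 after a RefSeq start, of which a gene can have more than 1) are shown for the 3 members with the smallest p. They are written 5′ to 3′ on the strand of the gene, all 3 on the plus strand, with the ATF4 element TGATGNAA or its reverse complement TTNCATCA in capitals. The first is chr14:55540016-55540315, the second chr19:27216770-27217069 and the third chr2:119350992-119351291.
Pck2: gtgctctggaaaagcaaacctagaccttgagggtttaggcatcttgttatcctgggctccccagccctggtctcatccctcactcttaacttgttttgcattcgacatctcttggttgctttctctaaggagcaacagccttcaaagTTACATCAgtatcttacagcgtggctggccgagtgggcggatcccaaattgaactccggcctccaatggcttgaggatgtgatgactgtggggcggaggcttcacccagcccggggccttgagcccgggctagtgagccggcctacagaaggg
Vldlr: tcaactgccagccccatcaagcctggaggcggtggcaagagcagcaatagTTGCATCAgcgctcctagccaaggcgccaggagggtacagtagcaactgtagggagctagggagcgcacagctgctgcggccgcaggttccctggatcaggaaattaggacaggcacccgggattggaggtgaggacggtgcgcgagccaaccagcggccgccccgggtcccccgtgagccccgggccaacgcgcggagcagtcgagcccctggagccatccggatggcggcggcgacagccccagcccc
Chac1: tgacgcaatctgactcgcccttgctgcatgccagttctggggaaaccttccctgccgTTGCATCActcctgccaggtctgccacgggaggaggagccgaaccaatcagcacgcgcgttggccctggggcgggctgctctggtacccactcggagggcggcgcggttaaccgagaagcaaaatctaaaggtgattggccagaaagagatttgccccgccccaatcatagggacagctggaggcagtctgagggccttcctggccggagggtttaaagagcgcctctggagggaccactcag
These letters occurred on either strand in 12 of the 28 genes called lower that have a window (42.9%), and in 4.51% of all 27025 genes with a window. Of all 30 listed genes with a window, called lower or not, 12 held them. The share therefore describes the list, which was made of genes of this pathway, and not the calls. The element starts 103, 200 and 193 bases before the RefSeq start on which each of these 3 windows is built, and a match is a description of sequence only. Vldlr has 2 windows, and the one that holds the element is shown. Its other window, chr19:27216234-27216533, covers the annotated gene start at 27216484 and holds 0 elements.

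Pck2, the mitochondrial form of phosphoenolpyruvate carboxykinase, had 23.6, 27 and 26.5 CPM with DZNep, against 83.5, 82.1 and 83.2 CPM with GSK126 (log2 −1.69 ± 0.06, adjusted p = 4.57e-15). Vldlr, the very low density lipoprotein receptor, had 11.1, 12.6 and 9.96 CPM with DZNep, against 98.9, 93.4 and 96.2 CPM with GSK126 (−3.10 ± 0.09, adjusted p = 5.42e-15). Chac1, which degrades glutathione, had 9.27, 11.1 and 12.6 CPM with DZNep, against 76.7, 82.4 and 81.3 CPM with GSK126 (−2.86 ± 0.10, adjusted p = 4.96e-14). The GSK126 libraries of all 3 were uniform and far above the DZNep libraries. The regulators themselves were lower as well, with values chosen after they were seen: Atf4 had 313, 333 and 373 CPM with DZNep, against 642, 677 and 755 CPM with GSK126 (−1.02 ± 0.07), the pro-apoptotic factor Ddit3 differed by −2.10 ± 0.10 and the pseudokinase Trib3 by −3.39 ± 0.11. Wars, tryptophanyl-tRNA synthetase (0.19 ± 0.05), its methionyl counterpart Mars and Slc7a3, a carrier of cationic amino acids (1.22 ± 0.24), were the members that were higher. Against the shared DMSO libraries the list had a median of −0.76 with DZNep and 0.08 with GSK126, with 30 members lower and 2 higher under DZNep (31% and 31.2% of all genes) and 0 lower and 7 higher under GSK126 (5.54% and 7.15% of all genes).

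Genes of G2 and M phase were mostly higher with DZNep, by less than 2-fold for most members. Of 53 tested, 48 were called higher (90.6%, against 32.9% of all genes) and 0 lower, the other 5 being Mki67, Ndc80, Top2a, Knl1 and Hmmr. The median log2 difference was 0.43, the called members ranged from 0.12 to 1.85, and 4 members differed 2-fold. The promoter of Cdk1, chosen after its values were seen because it holds both elements of this gene class, is printed 5′ to 3′ (RefSeq, GRCm38.p6, chr10:69352863-69353162, minus strand), with the CHR element TTTGAA and the CCAAT box CCAAT, or its reverse complement ATTGG, in capitals.
Cdk1: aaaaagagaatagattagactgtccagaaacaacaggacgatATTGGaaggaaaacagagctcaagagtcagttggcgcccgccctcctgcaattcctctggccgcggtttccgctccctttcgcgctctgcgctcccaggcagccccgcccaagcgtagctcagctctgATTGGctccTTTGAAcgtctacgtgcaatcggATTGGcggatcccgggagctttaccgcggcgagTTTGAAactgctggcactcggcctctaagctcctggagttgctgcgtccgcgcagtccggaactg
The CHR letters, searched as TTTGAA and TTCAAA, were in 24 of the 40 genes called higher that have a window (60%) and in 20.2% of all genes with one. The CCAAT letters were in 31 of these 40 (77.5%) and in 41.1% of all. Of all 45 listed genes with a window, called or not, 29 held the CHR letters and 34 the CCAAT letters. These shares therefore describe the list and not the calls.

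Gtse1 (chr15:85859745-85876573), a microtubule protein of G2 that restrains p53, had 142, 145 and 140 CPM with DZNep, against 38.8, 39.3 and 40.4 CPM with GSK126 (log2 1.85 ± 0.05, adjusted p = 7.2e-17). Psrc1, a spindle protein, had 124, 118 and 129 CPM with DZNep, against 34.8, 37.1 and 37.3 CPM with GSK126 (1.77 ± 0.05). Cdc25b, the phosphatase that starts mitotic entry, had 170, 175 and 169 CPM with DZNep, against 73.5, 77.3 and 78.9 CPM with GSK126 (1.16 ± 0.05). These were separated far more widely than Cdk1, the mitotic kinase, which had 76.9, 86.9 and 78.3 CPM with DZNep, against 55.7, 58.9 and 53.6 CPM with GSK126 (0.53 ± 0.07). The proliferation antigen Mki67 had overlapping levels of 761, 649 and 642 CPM with DZNep, against 802, 720 and 692 CPM with GSK126 (−0.11 ± 0.14, adjusted p = 0.509).

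S phase genes were also mostly higher, 31 of 45 (68.9%) with 5 lower and none 2-fold apart. The single-strand binding subunit Rpa1 (log2 0.70 ± 0.05), the origin factor Mcm10 (0.68 ± 0.05) and the ribonucleotide reductase subunit Rrm1 (0.66 ± 0.05) led, whereas the polymerase subunit Pola1 (−0.36 ± 0.05) and the chromatin remodeller Hells (−0.34 ± 0.05) were lower. Ribosome biogenesis genes behaved alike in count, with 30 of 43 higher (69.8%) and 3 lower. Nop2, which methylates ribosomal RNA, and Bop1, a processing factor, were each 0.87 higher on the log2 scale, with SE of 0.05 and 0.06, whereas the nucleolar chaperone Npm1 was lower (−0.52 ± 0.05). The cytosolic ribosomal proteins did not share this: of 79 tested, 7 were higher (8.86%, against 32.9% of all genes), 25 were lower (31.6%, near the 31.7% of all genes) and 47 were not called. Without the count filter, and in a fit of the 6 compared libraries alone, 11 were higher. Rpl15 was higher (0.61 ± 0.05), and Rpl4 (−0.59 ± 0.07) and Rpsa (−0.55 ± 0.07) were lower. Ribosomal protein genes have many processed pseudogenes, so the split of their reads is uncertain.

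Pigment cell genes were mostly higher with DZNep than with GSK126, 22 of 33 tested (66.7%) with 5 lower and a median log2 difference of 0.34. Kit (chr5:75574916-75656722), the receptor tyrosine kinase needed for melanoblast survival, had 139, 141 and 146 CPM with DZNep, against 36.2, 35.3 and 35.5 CPM with GSK126 (log2 1.99 ± 0.05, adjusted p = 2.7e-17). Rab32, which directs cargo to melanosomes, had 150, 144 and 140 CPM with DZNep, against 36.9, 39 and 40 CPM with GSK126 (1.90 ± 0.06). Tfap2a, a neural crest and melanocyte transcription factor, had 750, 728 and 778 CPM with DZNep, against 286, 311 and 315 CPM with GSK126 (1.31 ± 0.06). All 3 stood apart without overlap.

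The enzymes of melanin synthesis divided. Tyrp1 was higher, with 10437, 10458 and 10656 CPM with DZNep, against 7692, 7749 and 8066 CPM with GSK126 (log2 0.42 ± 0.05), and tyrosinase, Tyr, was higher by 0.54 ± 0.06. Dct, dopachrome tautomerase, was lower, with 5358, 5002 and 4518 CPM with DZNep, against 8338, 7876 and 7817 CPM with GSK126 (−0.69 ± 0.07, adjusted p = 5.82e-08), as was the melanocortin receptor Mc1r (−0.57 ± 0.05). The lineage factors Mitf (0.05 ± 0.06, adjusted p = 0.448) and Sox10 (−0.12 ± 0.08, adjusted p = 0.163) were not called. Against the shared DMSO libraries, 15 of 33 pigment cell genes were higher and 7 lower with DZNep (31.2% and 31% of all genes). With GSK126, 0 were higher and 16 lower (7.15% and 5.54% of all genes). The list medians were 0.08 with DZNep and −0.21 with GSK126.

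Proton pump genes, which acidify melanosomes and lysosomes, were mostly higher with DZNep than with GSK126. Of 18 vacuolar ATPase genes, 13 were higher (72.2%) and 2 lower with DZNep than with GSK126, with a median of 0.22. Against DMSO, 6 were higher and 5 lower with DZNep, in a fit that called 31.2% of all genes higher and 31% lower, while 0 were higher and 11 lower with GSK126, in a fit that called 7.15% of all genes higher and 5.54% lower. Tcirg1, a membrane subunit of the pump, had 178, 168 and 174 CPM with DZNep, against 106, 108 and 96.8 CPM with GSK126 (log2 0.74 ± 0.06), and Atp6v0a2, another form of that subunit, was lower (−0.39 ± 0.05). Lysosomal genes were divided, 17 of 36 higher (47.2%) and 11 lower (30.6%): the protease Ctsb (0.81 ± 0.06) was higher, and beta-galactosidase Glb1 (−1.13 ± 0.05) and acid ceramidase Asah1 (−0.84 ± 0.05) were lower. Against DMSO, 13 of the 36 lysosomal genes were higher and 16 lower with DZNep (median log2 −0.06), beside 31.2% and 31% of all genes. With GSK126, 0 were higher and 11 lower (median −0.12), beside 7.15% and 5.54% of all genes.

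Genes of the endoplasmic reticulum unfolded protein response were higher with DZNep in 13 of 22 cases (59.1%) and lower in 3. The chaperone Calr had 2546, 2498 and 2420 CPM with DZNep, against 1021, 1033 and 999 CPM with GSK126 (log2 1.29 ± 0.07, adjusted p = 1.34e-12), and the disulfide isomerases Pdia4 (1.06 ± 0.06) and Pdia6 (0.78 ± 0.06) followed. Of the genes of protein degradation in this list, Herpud1 (−0.44 ± 0.06), Sel1l (−0.35 ± 0.05) and Edem1 were lower, and Derl1 and Syvn1 were higher. Cholesterol synthesis genes ran downwards, with 16 of 26 lower (61.5%) and 3 higher, although none differed 2-fold. Insig1, an endoplasmic reticulum protein of sterol feedback, was lower with DZNep (−0.56 ± 0.05). Among 24 genes of lipid storage and transport, 13 were higher and 4 lower (54.2% and 16.7%, against 32.9% and 31.7% of all genes). Mgll, monoacylglycerol lipase, had 1054, 1091 and 1032 CPM with DZNep, against 359, 379 and 372 CPM with GSK126 (1.52 ± 0.06).

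In glycolysis and hypoxia 16 of 35 genes were higher and 11 lower, shares of 45.7% and 31.4% (32.9% and 31.7% of all genes). The growth factor Vegfa (log2 −1.32 ± 0.07) and the oxidase Ero1l (−0.97 ± 0.07) were lower, and Ndrg1 (0.73 ± 0.05) and hexokinase Hk1 (0.60 ± 0.06) higher. Of 26 NRF2 antioxidant genes, 13 were higher (50%) and 7 lower (26.9%). Ephx1, an epoxide hydrolase (0.85 ± 0.05), and Gstp1, a glutathione transferase (0.91 ± 0.08), were higher and Blvrb, biliverdin reductase B, was lower (−0.82 ± 0.12).

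Interferon-stimulated genes were higher with DZNep in 20 of 35 cases (57.1%, against 32.9% of all genes) and lower in 5, with a median log2 difference of 0.43. The guanylate-binding protein Gbp2 had 33.7, 36.4 and 30.7 CPM with DZNep, against 9.71, 8.75 and 8.53 CPM with GSK126 (log2 1.90 ± 0.08), and its relative Gbp3 differed by 1.73 ± 0.10. Gbp genes are near copies of each other, so their reads may have been shared. Cmpk2, a mitochondrial nucleotide kinase, went against them, with 20.1, 22.2 and 18.3 CPM with DZNep, against 42.1, 41.9 and 43.5 CPM with GSK126 (−1.07 ± 0.07). Against DMSO the medians were 0.16 with DZNep and −0.21 with GSK126. Antigen presentation by MHC class I had 9 higher and 3 lower of 20 (45% and 15%, against 32.9% and 31.7% of all genes). The lower members were H2-Q4, H2-M3 and Cd274, which encodes the checkpoint ligand PD-L1. Cd274 had 13.5, 12.7 and 13.9 CPM with DZNep, against 24.7, 23.6 and 24.5 CPM with GSK126 (−0.86 ± 0.08). H2-T22 (0.65 ± 0.08) and Tapbpl (0.83 ± 0.11) were higher, as were H2-D1, H2-T23 and Tap1 among others. The class I chain H2-K1 (0.01 ± 0.06, adjusted p = 0.875) and B2m (−0.04 ± 0.08, adjusted p = 0.682), chosen after their values were seen, were not called.

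**Figure D3:**
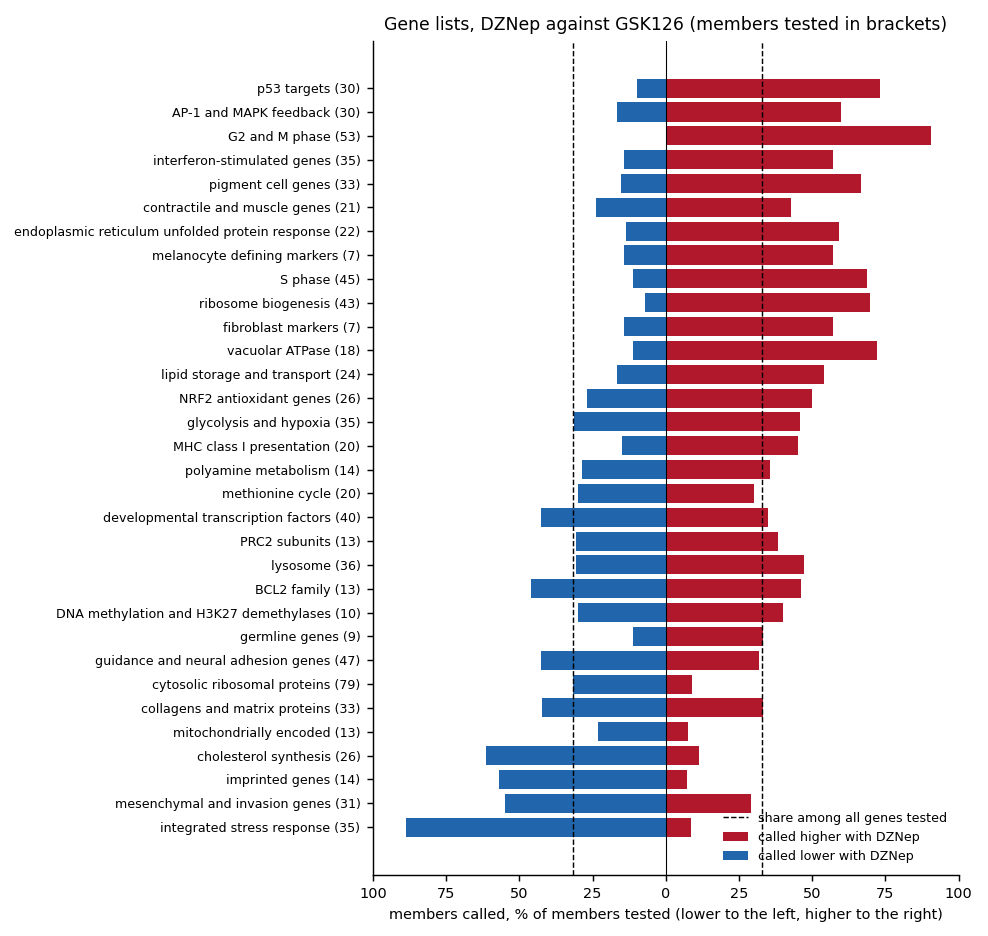
Share of the tested members of each gene list called higher (red, to the right) or lower (blue, to the left) with DZNep than with GSK126, in percent, with the number tested in brackets and dashed lines at the shares of all genes tested. G2 and M phase (90.6% higher) and the integrated stress response (88.6% lower) reach furthest, and PRC2 subunits lie near the dashed lines.

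Signalling genes separated the compounds too. Of 30 AP-1 and MAPK feedback genes, 18 were higher (60%) and 5 lower (16.7%) with DZNep, against 32.9% and 31.7% of all genes. Dusp10, a phosphatase of stress kinases, had 35.7, 38 and 36.1 CPM with DZNep, against 6.92, 6.75 and 6.25 CPM with GSK126 (log2 2.46 ± 0.08, adjusted p = 2.18e-15). Dusp4, a nuclear ERK phosphatase, had 115, 114 and 119 CPM with DZNep, against 61.3, 57.1 and 62.6 CPM with GSK126 (0.95 ± 0.06), and DMSO averaged 94 CPM, between them. The early growth response factor Egr1 was lower (−2.28 ± 0.27) at 0.118, 0.405 and 0.339 CPM with DZNep, against 1.26, 1.52 and 1.6 CPM with GSK126. In the BCL2 family the members divided within each role: of the survival genes Bcl2l1 was higher (1.17 ± 0.07) and Bcl2 lower (−1.28 ± 0.08), and of the death-promoting genes Bcl2l11 was higher (1.01 ± 0.07) and Bmf lower (−1.28 ± 0.07).

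Matrix, mesenchymal and muscle genes had large differences in both directions. These lists lost many members to the low-count filter (33 of 55 collagen and matrix genes and 21 of 49 contractile genes were tested), so their counts only describe the members detected. Of the matrix genes 11 were higher (33.3%, near the 32.9% of all genes) and 14 lower (42.4%, against 31.7% of all genes). Postn, a matricellular protein, had 49.9, 47.9 and 39.7 CPM with DZNep, against 7.78, 7.92 and 8.15 CPM with GSK126 (log2 2.52 ± 0.09), while Col4a1, a basement membrane collagen, had 26.6, 27.6 and 23.6 CPM with DZNep, against 89.5, 88.9 and 90.6 CPM with GSK126 (−1.79 ± 0.06). Of the contractile genes 9 were higher (42.9%) and 5 lower (23.8%, and 3 lower without GSK126 replicate 1). Cnn2, a calponin of non-muscle cells, was lower (−1.96 ± 0.06). Of 31 mesenchymal and invasion genes 17 were lower (54.8%, against 31.7% of all genes) and 9 higher (29%, against 32.9%). The gelatinase Mmp2 (2.82 ± 0.13) and the epithelial adhesion protein Cdh1 (2.00 ± 0.11) were both higher, and Tgfb1 was lower (−1.10 ± 0.06).

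Of 12 fibroblast markers 7 were tested, and 4 were higher (57.1%) and 1 lower (14.3%). Their summed level was 130, 125 and 121 CPM with DZNep, against 73.3, 79.4 and 75.2 CPM with GSK126 and between 79.5 and 83.2 CPM in DMSO. This list shares genes with the matrix list, among the tested ones Postn, Col1a1 and Col1a2. Postn alone averaged 45.8 CPM with DZNep and 7.95 CPM with GSK126. Of the fibroblast markers below the filter, Thy1, Dpt and Col3a1 had 0 counts in all 6 libraries. Dcn had 1, 0 and 1 counts with DZNep and 0 with GSK126. Lum had 2, 6 and 2 counts with DZNep, against 2, 3 and 4 counts with GSK126. The part of the marker list in the matrix results was not tested. The lower call, Pdgfra, was lost without DZNep replicate 2 or 3 and without GSK126 replicate 2 or 3. Col1a1, a fibrillar collagen chain, had 3.45, 4.29 and 4.25 CPM with DZNep, against 0.563, 0.645 and 0.34 CPM with GSK126 (2.95 on the log2 scale). Of the 3 blood and endothelial markers tested, Fcer1g, an Fc receptor chain (log2 1.66 ± 0.17), and Cd68, a protein of macrophage lysosomes (0.61 ± 0.14), were higher and Lyz2 was not called. Kdr, an endothelial growth factor receptor below the filter, had 8, 4 and 3 counts with DZNep, against 0, 1 and 0 counts with GSK126. The sums of the 3 tested markers were 7.85, 8.58 and 7.63 CPM with DZNep, against 3.67, 4.24 and 4.35 CPM with GSK126.

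The gene classes that PRC2 is known to silence gave no single direction. Of 99 developmental transcription factors, 40 were tested, and 14 were higher (35%) and 17 lower (42.5%) with DZNep, against 32.9% and 31.7% of all genes. Sox9, a neural crest and cartilage factor, had 110, 110 and 109 CPM with DZNep, against 28.5, 30.1 and 31.7 CPM with GSK126 (log2 1.86 ± 0.06), and Lmo1 had 6.79, 7.32 and 6.81 CPM with DZNep, against 22.2, 23.4 and 22.8 CPM with GSK126 (−1.71 ± 0.09). Of 55 axon guidance and neural adhesion genes, 47 were tested, 15 higher (31.9%) and 20 lower (42.6%): the guidance receptor Nrp1 was higher (1.12 ± 0.05) and the secreted ligand Slit2 lower (−2.04 ± 0.07). Of 41 germline genes 9 were tested, and Rhox5 (2.36 ± 0.33) and Tdrd9 (1.53 ± 0.32) were higher at under 1 CPM, while Ddx4 was lower (−1.43 ± 0.17). A further germline gene was called lower without DZNep replicate 3.

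Of 35 imprinted genes 14 were tested. One of them, the retrotransposon-derived Peg10, was higher, with 731, 696 and 808 CPM with DZNep, against 200, 211 and 210 CPM with GSK126 (log2 1.85 ± 0.09, adjusted p = 3.44e-11). Its neighbour Sgce, imprinted together with it, was lower, with 102, 104 and 88 CPM with DZNep, against 184, 177 and 182 CPM with GSK126 (−0.88 ± 0.06), and 8 of the 14 were lower (57.1%, against 31.7% of all genes). DMSO averaged 125 CPM for Peg10 and 155 CPM for Sgce.

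**Figure D4:**
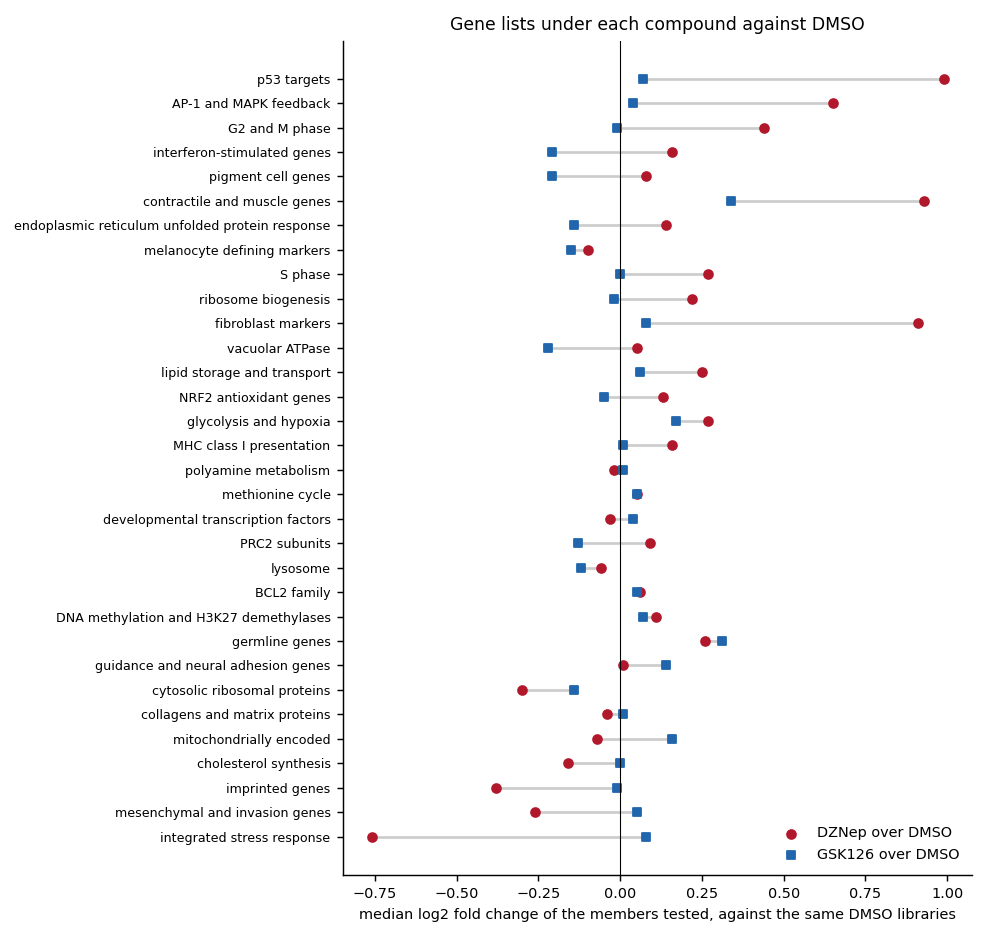
Median log2 fold change of the tested members of each list against DMSO, with DZNep as red circles and GSK126 as blue squares on the same horizontal scale, lists ordered by the difference between the compounds. Both sets of values use the same DMSO libraries. The p53 targets lie at 0.99 with DZNep and 0.07 with GSK126, the integrated stress response at −0.76 with DZNep and 0.08 with GSK126, and pigment cell genes at 0.08 with DZNep and −0.21 with GSK126.

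A few genes stood out for how far GSK126 moved them. They were chosen as the largest changes with GSK126 against DMSO, so their values are a description and no test. Sema3c (chr5:17574281-17730268), a secreted guidance semaphorin, had 2.1, 2.26 and 1.88 CPM with DZNep, against 34.1, 30.7 and 34.5 CPM with GSK126 and a mean of 6.02 CPM in DMSO. Lmo2, a cofactor of blood cell transcription factors, had 0.295, 0.358 and 0.158 CPM with DZNep, against 5.95, 5.99 and 5.3 CPM with GSK126 and 1.08 CPM in DMSO. For both genes DZNep lay below DMSO and GSK126 above it, as it did for the integrin chain Itgb8, with log2 values against DMSO of −1.34 with DZNep and 1.59 with GSK126.

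Pcdh17, a protocadherin, had 6.08, 7.44 and 6.2 CPM with DZNep, against 35.2, 31.6 and 34.4 CPM with GSK126 and 7.41 CPM in DMSO. Cntn1, a neural adhesion molecule, had 29.6, 30 and 24.4 CPM with DZNep, against 94.9, 90.9 and 91.8 CPM with GSK126 and 31.9 CPM in DMSO. Here the DZNep libraries stood near DMSO. Among genes lowered by GSK126, Dhrs3, a retinaldehyde reductase, had 30.3, 34 and 28.4 CPM with DZNep, against 4.91, 5.34 and 4.79 CPM with GSK126 and 10.4 CPM in DMSO, and the kinase Sgk2 had 4.49, 5.05 and 4.91 CPM with DZNep, against 1.72, 1.54 and 1.43 CPM with GSK126 and 5.4 CPM in DMSO. The matrix metalloproteinase Mmp15 lay below its DMSO mean of 9.62 CPM under both compounds, at 2.24, 2.69 and 2.58 CPM with DZNep and 4.96, 5.46 and 5.84 CPM with GSK126. The siEzh2 libraries, which share no control with these, put Sema3c, Pcdh17 and Cntn1 lower than scr (log2 −0.89, −0.85 and −1.15) and Itgb8 higher (1.67). Sema3c averaged 7.06 CPM with siEzh2 and 13.1 CPM with scr, and Pcdh17 8.24 and 14.8 CPM. For both, siEzh2 lay slightly above the DMSO mean and scr well above it, and the part of scr in these differences was not tested.

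Genes that differed between siEzh2 and scr could be picked in the siRNA arm, whose libraries the comparison of compounds does not use. Such a difference can come from either group, and how far scr itself stood from DMSO was not tested. Of 150 genes called at least 2-fold higher with siEzh2 than with scr (0.99% of all genes), 83 were higher (55.3%, against 32.9% of all genes) and 28 lower with DZNep than with GSK126, with a median log2 difference of 0.70. Of 182 genes called at least 2-fold lower with siEzh2 (1.2% of all genes), Ezh2 was left out, and 104 of the remaining 181 were lower (57.5%, against 31.7%) and 21 higher, with a median of −0.72. Against the shared DMSO libraries, the medians of the first set were 0.76 with DZNep and 0.05 with GSK126, and those of the second −0.72 with DZNep and 0.13 with GSK126. These sets hold weakly expressed genes, with a median DMSO level of 0.765 CPM in the first and 0.65 CPM in the second, against 18.6 CPM for all genes tested, and the part of expression level was not tested. With no limit on size, 873 of 2000 genes called higher with siEzh2 (43.6%) were higher and 603 (30.1%) lower with DZNep than with GSK126, and of 1952 genes called lower with siEzh2, 846 (43.3%) were lower and 578 (29.6%) higher, at median DMSO levels of 38.7 and 26.1 CPM.

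Ccn4 (chr15:66891320-66923201), a matricellular signalling protein of the Wnt pathway, led the first set in evidence. It had 398, 404 and 401 CPM with DZNep, against 32, 31.1 and 32.6 CPM with GSK126 (log2 3.65 ± 0.05, adjusted p = 1.26e-20), and differed by 2.03 between siEzh2 and scr. The cytokine-like phosphoprotein Spp1 (1.92 ± 0.08), the keratin Krt80 (2.19 ± 0.12) and the clotting protein Vwf (1.37 ± 0.12) were likewise higher with DZNep than with GSK126. Abca12, a lipid transporter, had 241, 239 and 248 CPM with DZNep, against 125, 125 and 106 CPM with GSK126 and 56 CPM in DMSO, so that both compounds lay above the vehicle. Ano3, of the anoctamin family of calcium-dependent membrane proteins, was higher under GSK126, with 69.6, 58.6 and 57.1 CPM with DZNep, against 109, 108 and 114 CPM with GSK126 and 53.2 CPM in DMSO (−0.84 ± 0.07). Among genes lower with siEzh2, Notch1, a receptor of cell fate decisions, had 12.2, 14.4 and 15.6 CPM with DZNep, against 39.5, 43 and 45.4 CPM with GSK126 (−1.59 ± 0.10), and Cdsn differed by −3.92 between the compounds and −2.50 between siEzh2 and scr. Cdsn averaged 5.01 CPM with siEzh2, 28.5 CPM with scr and 5.11 CPM in DMSO, so its scr level stood apart from both.

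Long non-coding RNA genes, a class chosen after its values were seen, held more lower than higher calls with DZNep. Of 388 antisense genes tested, 180 were lower (46.4%) and 52 higher (13.4%), with a median log2 difference of −0.58, and of 331 lincRNA genes 138 were lower and 48 higher. Of 12426 protein-coding genes 32.1% were lower and 36.5% higher, and the difference between the classes was not tested. Under 0.5 CPM in scr the share called lower was 28.6% of antisense, 26.4% of lincRNA and 28.6% of protein-coding genes. Between 0.5 and 2 CPM it was 49.6% of antisense, 51.6% of lincRNA and 38.6% of protein-coding genes, and between 2 and 8 CPM 69% of antisense, 52.1% of lincRNA and 34.1% of protein-coding genes. At 8 CPM or more, 18 of 21 antisense genes (85.7%) and 19 of 40 lincRNA genes (47.5%, with 22.5% higher) were lower, against 31.4% of 9101 protein-coding genes. Trp53cor1, a lincRNA beside Cdkn1a that p53 is known to induce, had 2.33, 2.77 and 2.2 CPM with DZNep, against 14.8, 17.8 and 17.6 CPM with GSK126 (−2.78 ± 0.11), opposite to its neighbour. Snhg12, a host of small nucleolar RNAs, had 4.25, 4.91 and 4.75 CPM with DZNep, against 20.9, 21 and 22.5 CPM with GSK126 (−2.21 ± 0.10). Dlx6os1, an antisense RNA of the Dlx locus, had 8.32, 7.87 and 9.26 CPM with DZNep, against 43.9, 42 and 43.9 CPM with GSK126 (−2.35 ± 0.07). Without the strand setting, reads of an antisense gene and its sense partner cannot be told apart.

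**Figure D5:**
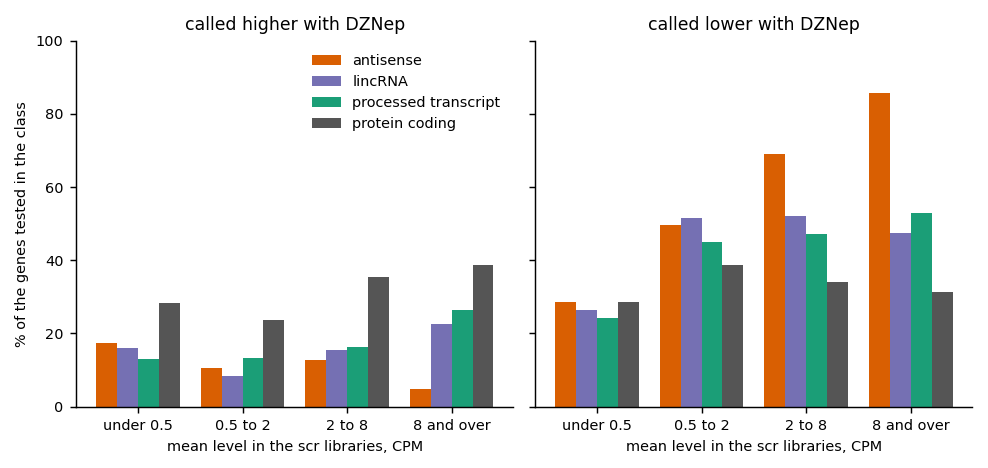
Percent of tested genes called higher (left panel) or lower (right panel) with DZNep than with GSK126, by gene class and by mean CPM in the scr libraries. The share of antisense genes called lower is 28.6% under 0.5 CPM, as is that of protein-coding genes, and 85.7% at 8 CPM and over, where that of protein-coding genes is 31.4%.

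Some genes had no count at all under either one compound or the other. With 0 counts in all 3 GSK126 libraries, 6 genes were called higher with DZNep. Myh15, a myosin heavy chain, had 19, 25 and 15 counts with DZNep (at least 20.3-fold higher, taking 3 counts over the group as the floor), and Adgrg2, an adhesion receptor of the epididymis, had 17, 15 and 20 counts (at least 17.8-fold higher). With 0 counts in all 3 DZNep libraries, 8 genes were called lower. Ostn, a bone and muscle peptide, had 17, 22 and 32 counts with GSK126 (at least 23.2-fold lower with DZNep), Igsf21, a synaptic adhesion protein, had 17, 27 and 27 counts (at least 23.1-fold lower), and Lamb3, a laminin chain of skin basement membrane, had 20, 15 and 18 counts (at least 17.6-fold lower). These genes were chosen after their values were seen. Allowing up to 3 counts over the lower group gave 14 genes higher and 50 lower with DZNep, and such floors cover counting error only.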

How the data were processed

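RNA of 15 libraries of B16-F10 cells was measured, and the DZNep and GSK126 libraries were compared, with the others in the same fit. The authors deposited whole-number read counts per gene without normalizing them. STAR (alignment), GRCm38 (build) and featureCounts (counting) are named, without versions, per the submitters' processing notes. The sources used here give no annotation or strand setting, so reads of overlapping and near-identical genes may be split or shared. Of 46078 gene identifiers, 45229 matched GENCODE M21 (GRCm38), and the other 849 held 0.0588% of counts.

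The main test was the quasi-likelihood F-test (edgeR 4.0.16, R 4.3.3, with TMM scaling, its low-count filter, robust estimation) in 1 fit of 15 libraries with a term for each of 5 groups. Benjamini-Hochberg adjustment ran over all 15152 genes tested, every adjusted p comes from this fit unless another is named, and genes were called under 0.05. The coefficient of variation between libraries was 6.4%. CPM use TMM-scaled library sizes, and ± marks the standard error of a log2 fold change (DZNep over GSK126). Replicates differed beyond sampling noise (chi-square per degree of freedom 5.62 to 22.8), so each library was counted. The fit was tested on simulated data.

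The comparison, the 33 gene lists (1108 symbols) and the naming rule were chosen with earlier results of these data known. The rule named PRC2 and hydrolase genes, the 10 largest called changes each way with a mean of at least 2 CPM, no overlap between groups and no predicted or clone symbol, the leading called members of each list in both directions, and the largest changes with GSK126 against DMSO and siEzh2 against scr. Other genes named in the text were chosen after their values were seen. Some genes that the rule named are not reported here. Promoter windows are RefSeq sequences.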

Additional observations from a re-analysis of the deposited data

How the results depend on the processing

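Under 12 alternatives, the number of genes called lay between 9156 and 10258, no gene was called in the opposite direction, and between 90.6% and 98.9% of the calls were kept. DESeq2 1.42.0 called 9601 genes, library totals alone 9682, DESeq2 size factors 9790, no count filter 10258 and a fit of the 6 compared libraries 10029. Leaving out 1 library at a time gave between 9156 and 9443. Of 169 named genes, 5 changed their side of the threshold in some setting and none its direction. mt-Nd2 missed it with the replicate block (adjusted p = 0.0598) and Prkg2 without GSK126 replicate 1 (0.0536) or DZNep replicate 1 (0.0633) in edgeR, and the others are given above. Counts over long non-coding classes and siEzh2 gene sets under the same settings were added after seeing the data.

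Among the counts for lists, 16 moved by more than 1.5 times and 848 did not. Of 13 mitochondrially encoded genes, 3 were called lower, 1 without DZNep replicate 3 or GSK126 replicate 3, and 6 with no count filter. Ribosomal proteins called higher numbered 11 with no filter and 11 in the fit of 6 libraries.

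The deviations of same-numbered DZNep and GSK126 libraries had correlations of 0.0254, −0.0156 and 0.0325 over genes. Those of differently numbered libraries lay between −0.0431 and 0.0171. These low values show no clear pairing by number, but they cannot exclude a shared culture or day. With the replicate block 9742 genes were called.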
